A study of Caenorhabditis elegans with 20 samples.

Results

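The genes described here are 10 enzymes that make unsaturated and long-chain fatty acids in *C. elegans*, 7 desaturases (*fat-1* to *fat-7*) and 3 elongases (*elo-1*, *elo-2* and *elo-5*). They were chosen by symbol and matched by WormBase identifier, and all 10 were found among the 27375 genes of the deposited tables. RNA came from whole hermaphrodites at the L4 larval stage, grown at 20 °C with food, with 4 libraries per genotype. The genotypes were *egl-9(sa307)*, OR3350, the *egl-9(sa307); hif-1(ia4)* double mutant (*egl-9 hif-1* below), and wild type (N2). OR3350 carries *egl-9(sa307)*, *hif-1(ia4)*, the mutation *unc-119(ed3)* and the transgene *odIs131[hif-1::gfp, unc-119(+)]*, a fosmid copy of *hif-1* fused to GFP that stands in for the deleted gene, with a rescuing copy of *unc-119*. Single *hif-1(ia4)* mutants were also sequenced (4 libraries) and were not used here. EGL-9 is an oxygen-dependent enzyme that hydroxylates the transcription factor HIF-1 and so leads to its destruction. HIF-1 is therefore stable in *egl-9* animals and in OR3350 in air, and missing or inactive in *egl-9 hif-1* and wild type. The comparisons ask which transcripts differ when HIF-1 is active.

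The values are the authors' deposited comparisons, with no values per library, so the spread between libraries is seen only through the errors given here. Depth of each library is not known from the tables. A log2 difference of 1 is a doubling, and each is given with an approximate standard error (SE), obtained by dividing its size by the square root of the likelihood ratio. A gene was called at a false discovery rate (FDR) under 0.01, adjusted over all genes. OR3350 against *egl-9*, and *egl-9 hif-1* against wild type, were formed from the deposited values and tested with an approximate z test. The 6 comparisons use the same 16 libraries, so they are not independent of each other. Because whole animals were sequenced, fewer cells of a type and less RNA per cell cannot be told apart.

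The genotypes were checked by their *hif-1* RNA, which exceeded that of *egl-9 hif-1* by 2.11 ± 0.11 (SE) on the log2 scale in *egl-9* and by 1.68 ± 0.11 in OR3350. It was lower in OR3350 than in *egl-9* by a log2 difference of -0.43 (FDR 0.0039), and stood at 63.0% of wild type in OR3350. In *egl-9 hif-1* it was still at 19.7% of wild type. The paper describes *hif-1(ia4)* transcripts that contain the deletion, and OR3350 carries that allele too. Its 63.0% can therefore include RNA of the deleted gene beside that of the transgene. The *egl-9* transcript itself, which HIF-1 is known to induce, was lower in OR3350 than in *egl-9* (-0.96 ± 0.14, FDR 2.7e-10). OR3350 and *egl-9* thus differ in *hif-1* RNA as well as in the GFP tag and in the *unc-119* mutation with its rescue.

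Desaturases place double bonds in fatty acids that are joined to coenzyme A or to phospholipids, and each reaction consumes oxygen and electrons delivered through cytochrome b5. In *C. elegans* the pathway runs from palmitic acid, which ELO-2 extends to stearic acid, through the delta-9 desaturases FAT-5, FAT-6 and FAT-7 to palmitoleic and oleic acid. FAT-2 then makes linoleic acid, and FAT-3, ELO-1, FAT-4 and FAT-1 carry it on to arachidonic and eicosapentaenoic acid, which worms can make without a dietary source. Most of these enzymes act in the intestine, the main site of fat synthesis and storage in the worm.

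Of the 10 genes, 8 lie on chromosome IV and 2 (*fat-5* and *fat-7*) on chromosome V of the WBcel235 assembly. Same-strand neighbours on chromosome IV are *fat-4* and *fat-3* with 796 bp between them and *fat-1* and *fat-2* with 5061 bp. Levels between genes were compared only after division by exon length, as the mean CPM (library-scaled read counts) per kb of exon over the libraries of the authors' fit. On that scale *fat-2* (359), *elo-1* (330.1), *fat-1* (278) and *fat-6* (270.2) were the most abundant. They were followed by *elo-5* (161), *fat-4* (119), *fat-3* (105) and *elo-2* (104). The delta-9 desaturases *fat-7* (64.1) and *fat-5* (26.0) had the least RNA.

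The delta-9 desaturases introduce the first double bond. *fat-7* and *fat-5* had the largest differences of the 10 genes. Both fell in *egl-9* against both genotypes without active HIF-1, while *fat-6* rose in *egl-9* against wild type. In OR3350 *fat-7* was not called against either genotype, and *fat-5* was higher than in both.

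*fat-7* encodes a stearoyl-CoA desaturase that makes oleic acid (chromosome V, 7151353 to 7153146, minus strand, 5 exons). Its transcript stood at 16.6% of wild type in *egl-9*, at 102% in OR3350 and at 118% in *egl-9 hif-1*. The *egl-9* animals thus stood apart from the 3 other genotypes, which were not called different from each other. The log2 difference was -2.59 ± 0.31 in *egl-9* against wild type (FDR 9.75e-15) and -2.84 ± 0.32 in *egl-9* against *egl-9 hif-1* (FDR 3.71e-17). These were the largest differences of any of the 10 genes in those comparisons. OR3350 was higher than *egl-9* by 2.63 ± 0.31 (FDR 4.1e-15), rank 61 of 27375 genes by p. In OR3350 the 95% interval of the log2 difference ran from -0.55 to 0.61 relative to wild type (FDR 1), and relative to *egl-9 hif-1* from -0.79 to 0.37 (FDR 0.71).

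*fat-5* encodes the palmitoyl-CoA desaturase (chromosome V, 17725004 to 17726818, plus strand, 3 exons). Its level was 40.9% of wild type in *egl-9*, 314% in OR3350 and 126% in *egl-9 hif-1*, so both genotypes with active HIF-1 differed from wild type in opposite directions. The log2 difference was -1.29 ± 0.35 in *egl-9* against wild type (FDR 0.0017) and -1.63 ± 0.35 in *egl-9* against *egl-9 hif-1* (FDR 1.0e-04). OR3350 exceeded wild type by 1.65 ± 0.35 (FDR 5.6e-05) and *egl-9 hif-1* by 1.31 ± 0.35 (FDR 0.0021). The gap between OR3350 and *egl-9* was 2.94 ± 0.35 (FDR 2.8e-14), which ranked 71 of 27375 genes by p. *egl-9 hif-1* and wild type, the neighbours in the middle of the order, were not called different (0.34 ± 0.35, FDR 0.60). *fat-5* was the least abundant of the 10 transcripts and had the largest SE. It shares 28 exon bases with *twk-42*, a potassium channel gene on the other strand. *twk-42* was not called in any of the 6 comparisons, with log2 differences from -0.39 to 0.19. Whether the authors' counting used strand is not given in the sources used here.

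*fat-6* encodes the other stearoyl-CoA desaturase and is a close paralog of *fat-7* (chromosome IV, 11913692 to 11915687, minus strand, 5 exon blocks). Its transcript stood at 174% of wild type in *egl-9*, at 152% in OR3350 and at 128% in *egl-9 hif-1*. It rose against wild type in *egl-9*, by 0.80 ± 0.18 (FDR 1.4e-04), as well as in OR3350, by 0.60 ± 0.18 (FDR 0.0083). Against *egl-9 hif-1* neither passed the test, with 0.44 ± 0.18 for *egl-9* (FDR 0.086) and 0.24 ± 0.18 for OR3350 (FDR 0.40). How reads shared by *fat-6* and *fat-7* were counted is not given in the sources used here, so the size of both genes' values carries that uncertainty.

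**Figure D1:**
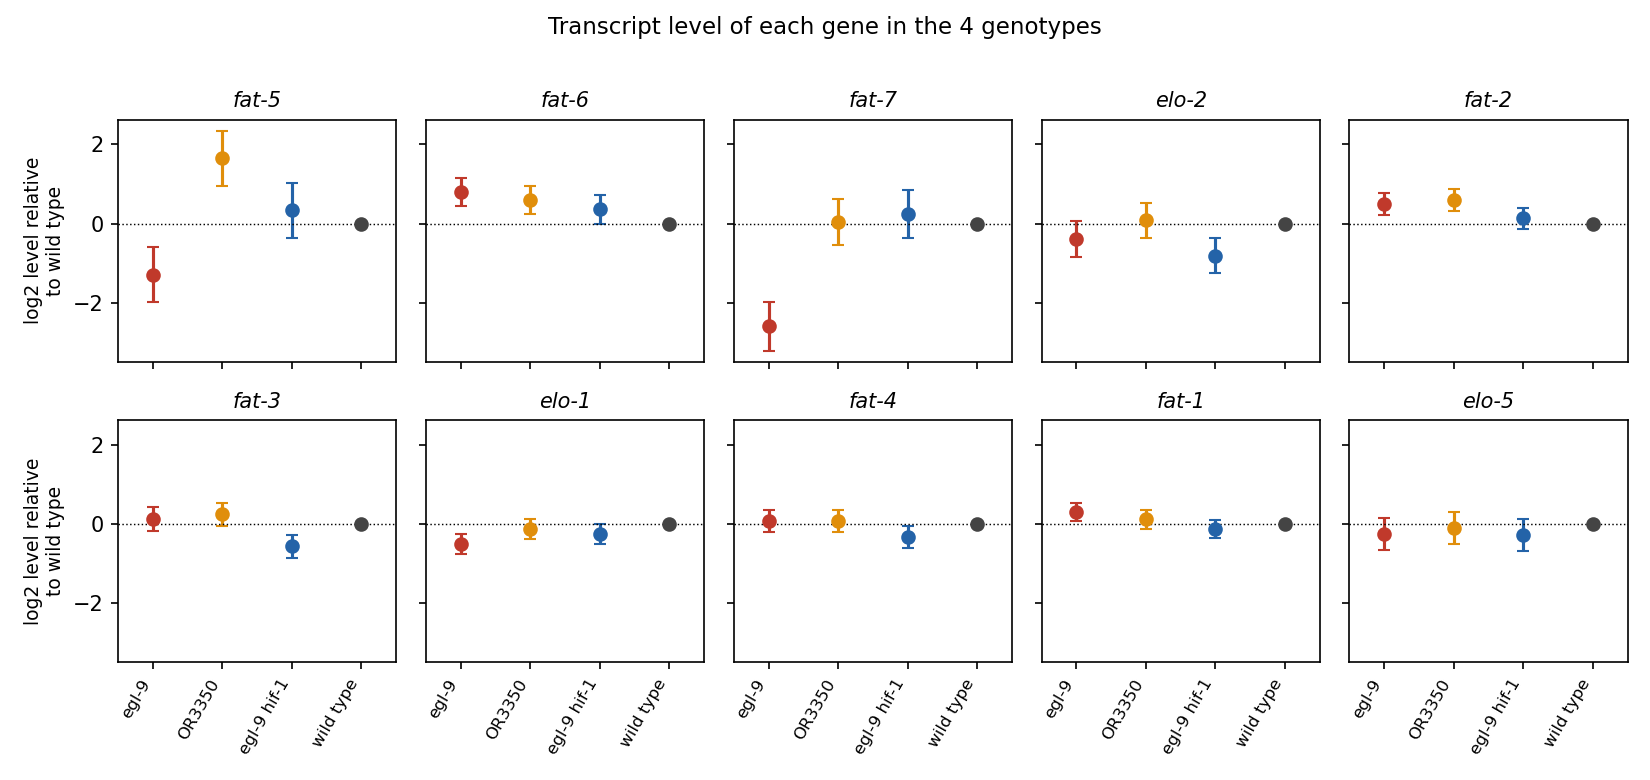
Transcript level of each of the 10 genes in the 4 genotypes, as the log2 level relative to wild type (vertical axis), with bars for approximate 95% intervals. In *egl-9*, *fat-7* stood at -2.59 and *fat-5* at -1.29, while in OR3350 *fat-7* was at 0.03 and *fat-5* at 1.65.

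Markers of the intestine, where most of the enzymes act, and of other tissues moved in some of these comparisons and not in others. Against wild type, 9.62% of all genes were called lower in *egl-9*, 7.34% in OR3350 and 2.47% in *egl-9 hif-1*. The shares called higher were 9.81%, 5.07% and 4.81% in the same order. Among 8 intestinal markers, 3 fell in *egl-9* against wild type (*act-5*, *ifb-2* and *elt-2*, from -1.16 to -0.49). None of the 8 was called in *egl-9* against *egl-9 hif-1* (from -0.68 to 0.17) or in OR3350 against *egl-9* (from -0.15 to 0.47). Of 6 yolk genes, which the intestine switches on at adulthood, 4 fell in *egl-9* against wild type (median of the 6, -2.53). Against wild type, 3 of the 6 also fell in *egl-9 hif-1* (median -2.15) and 1 fell in OR3350 (*vit-3*, -1.77, with a median of -1.10 over the 6). None of the 6 was called in *egl-9* against *egl-9 hif-1* (median -0.48) or in OR3350 against *egl-9*, where they ranged from 1.10 to 1.91 (median 1.38). *act-5* was also lower in OR3350 than in wild type (-0.69, FDR 0.0082), and was at -0.68 in *egl-9* against *egl-9 hif-1* (FDR 0.012). Of 6 hypodermal markers, 3 (*dpy-7*, *dpy-10* and *wrt-2*) were higher in *egl-9* (2.62 to 2.84), OR3350 (2.39 to 2.69) and *egl-9 hif-1* (2.77 to 2.91) than in wild type, and not called between the mutants. Another, *elt-3*, was lower in *egl-9* than in wild type (-1.45, FDR 3.4e-04) and not called in OR3350 (-0.74) or *egl-9 hif-1* (-0.69). The remaining *elt-1* and *nhr-23* ranged from -0.37 to 0.02 against wild type and were not called. Of 6 sperm markers, 4 were lower in OR3350 than in wild type (median of the 6, -0.67) and 3 fell in OR3350 against *egl-9 hif-1* (median -0.41). Of 6 germ line markers, 1 (*glh-1*) fell in *egl-9* against *egl-9 hif-1* (-0.55, FDR 9.7e-04), where the median of the 6 was 0.19. In OR3350 against *egl-9 hif-1*, 1 of the 6 was higher (*glp-1*, 0.58, FDR 0.0052) and 0 lower, with a median of 0.30. The part of these markers in the differences of the 10 genes was not tested.

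*elo-2* extends palmitic acid to stearic acid, the substrate of FAT-6 and FAT-7 (chromosome IV, 17466062 to 17467408, minus strand, 5 exons). Its level was 76.4% of wild type in *egl-9*, 106% in OR3350 and 56.9% in *egl-9 hif-1*. Both called differences involved *egl-9 hif-1*: OR3350 was higher than *egl-9 hif-1* (0.90 ± 0.23, FDR 0.0013), and *egl-9 hif-1* was lower than wild type (-0.81 ± 0.23, FDR 0.0057). The second call was lost when values were recentred on the median of the more abundant genes, those with a mean log2 CPM of 5 or higher (-0.69, FDR 0.025). *egl-9* was called neither against wild type (-0.39 ± 0.23, FDR 0.22) nor against *egl-9 hif-1* (0.42 ± 0.23, FDR 0.22), where the signs were opposite.

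*fat-2* encodes the delta-12 desaturase that turns oleic into linoleic acid, the entry step to all polyunsaturated fatty acids in the worm (chromosome IV, 13323873 to 13326395, plus strand, 3 exon blocks). The transcript was at 141% of wild type in *egl-9*, 151% in OR3350 and 110% in *egl-9 hif-1*. It was 0.49 ± 0.14 above wild type for *egl-9* (FDR 0.0021) and 0.60 ± 0.14 above wild type for OR3350 (FDR 2.0e-04). OR3350 was also higher than *egl-9 hif-1* (0.46 ± 0.14, FDR 0.0063), a call that recentring ended (0.37, FDR 0.038), whereas *egl-9* against *egl-9 hif-1* missed the threshold (0.36 ± 0.14, FDR 0.052). OR3350 and *egl-9* were not called different (0.10 ± 0.14, FDR 0.77).

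*fat-3* encodes the delta-6 desaturase that acts on linoleic acid (chromosome IV, 9803023 to 9806119, plus strand). Its level was 109% of wild type in *egl-9*, 118.5% in OR3350 and 67.8% in *egl-9 hif-1*, the lowest of the 4 genotypes. Both genotypes with active HIF-1 stood above *egl-9 hif-1*, *egl-9* by 0.69 ± 0.15 (FDR 1.3e-04) and OR3350 by 0.81 ± 0.15 (FDR 3.6e-06). Against wild type neither was called, with 0.13 ± 0.15 for *egl-9* (FDR 0.59) and 0.24 ± 0.15 for OR3350 (FDR 0.30). *egl-9 hif-1* was lower than wild type (-0.56 ± 0.15, FDR 0.0036), a call that recentring (-0.44, FDR 0.034) or a minimum of 1.5-fold ended.

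*fat-4*, the delta-5 desaturase that makes arachidonic acid, lies just before *fat-3* (chromosome IV, 9799429 to 9802226, plus strand). Its level was 106% of wild type in *egl-9*, 105% in OR3350 and 79.9% in *egl-9 hif-1*, which was again the lowest. It was called in no comparison. The values nearest to the threshold were those against *egl-9 hif-1*, 0.41 ± 0.14 for *egl-9* (FDR 0.034) and 0.40 ± 0.14 for OR3350 (FDR 0.036).

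*elo-1* encodes the elongase between the steps of FAT-3 and FAT-4 (chromosome IV, 9526366 to 9528336, plus strand). It was at 70.2% of wild type in *egl-9*, 91.6% in OR3350 and 84.0% in *egl-9 hif-1*. It fell in *egl-9* against wild type (-0.51 ± 0.13, FDR 5.5e-04). In OR3350 against wild type the difference was -0.13, with a 95% interval from -0.38 to 0.12 (FDR 0.57). OR3350 against *egl-9* gave 0.38 ± 0.13, which missed the threshold (FDR 0.044).

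*fat-1* encodes the omega-3 desaturase, an enzyme that mammals lack (chromosome IV, 13315644 to 13318811, plus strand). Its level was 124% of wild type in *egl-9*, 109% in OR3350 and 91.6% in *egl-9 hif-1*. The one call was a rise in *egl-9* against *egl-9 hif-1* (0.43 ± 0.12, FDR 0.0041), which recentring ended (0.39, FDR 0.012). The other values were 0.31 ± 0.12 in *egl-9* against wild type (FDR 0.042), and in OR3350 0.12 ± 0.12 relative to wild type (FDR 0.58) and 0.25 ± 0.12 relative to *egl-9 hif-1* (FDR 0.16).

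*elo-5* makes the branched-chain fatty acids that worms need for growth (chromosome IV, 5374616 to 5377117, minus strand). It stood between 83.2% and 92.9% of wild type in the 3 mutant genotypes and was called in no comparison. In *egl-9* against wild type the log2 difference was -0.24, with a 95% interval from -0.65 to 0.16. It shares 162 exon bases with *F41H10.3*, a coding gene on the other strand. That gene was called higher in OR3350 against *egl-9 hif-1* (0.61 ± 0.14, FDR 3.2e-04), where *elo-5* was at 0.16 ± 0.21 (FDR 0.67).

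**Figure D2:**
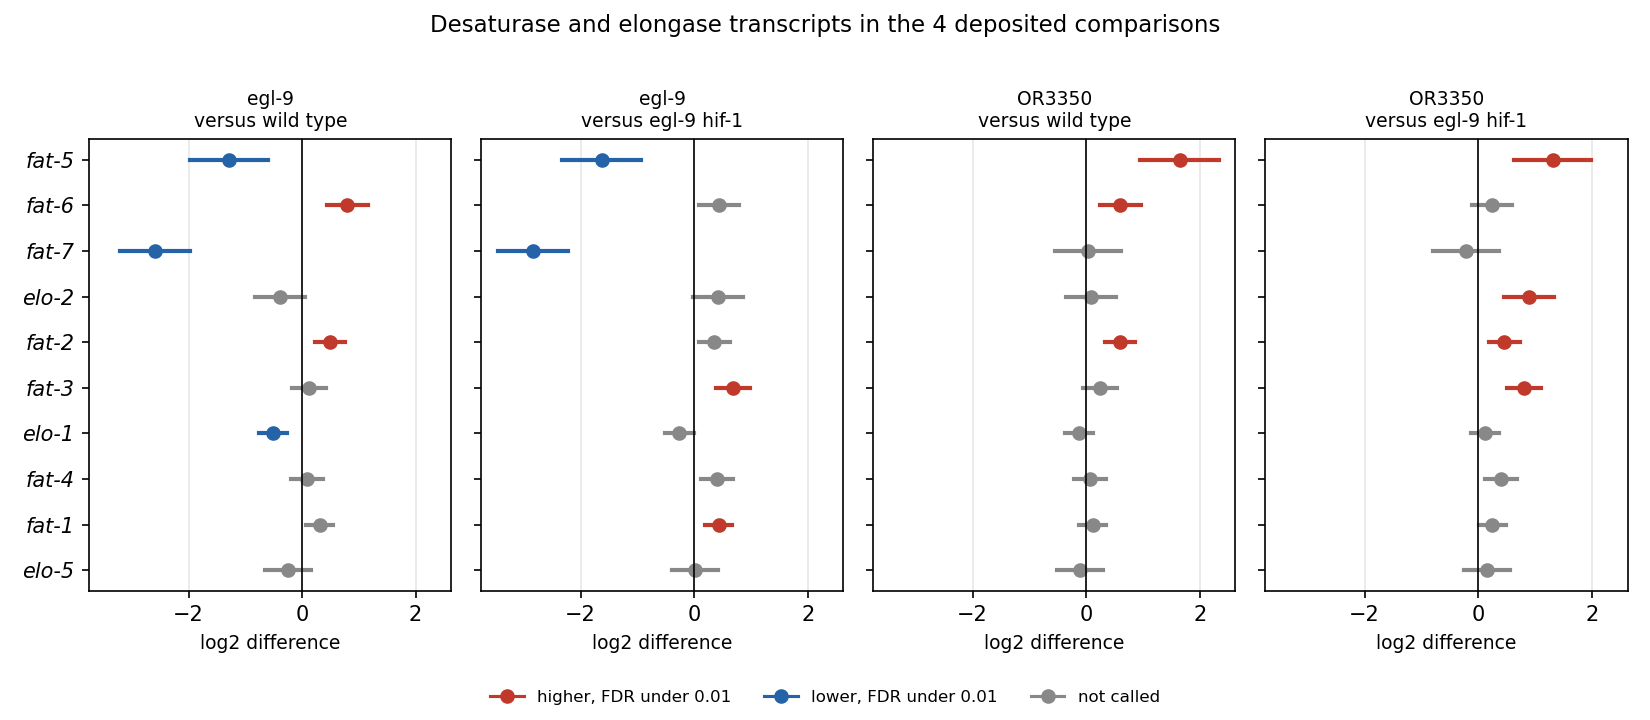
Log2 differences (horizontal axis) of the 10 genes in the 4 deposited comparisons, with bars for approximate 95% intervals and colours for FDR calls. *fat-7* at -2.59 and -2.84 and *fat-5* at -1.29 and -1.63 lie far left in the *egl-9* panels, while no gene was called lower in the OR3350 panels.

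Against wild type, *egl-9* had 2 of the 10 genes higher (*fat-6* and *fat-2*) and 3 lower (*fat-7*, *fat-5* and *elo-1*), where 9.81% of all genes were called higher and 9.62% lower. The shares of all genes, above and below, include genes with little RNA, whereas the 10 had a mean log2 CPM of 4.84 or higher. The median log2 difference of the 10 was -0.08, against 0 over all genes tested. Against *egl-9 hif-1*, *egl-9* had 2 higher (*fat-3* and *fat-1*) and 2 lower (*fat-7* and *fat-5*), where 5.57% of all genes were higher and 4.19% lower. The median of the 10 was 0.38 there, against 0 over all genes. The more abundant genes (mean log2 CPM 5 or higher) had medians of -0.02 and 0.04 in these 2 comparisons. *fat-7* and *fat-5* were the genes called in both, in the same direction.

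Against wild type, OR3350 had 3 of the 10 higher (*fat-5*, *fat-6* and *fat-2*) and 0 lower, where 5.07% of all genes were called higher and 7.34% lower. Against *egl-9 hif-1* it had 4 higher (*fat-5*, *elo-2*, *fat-3* and *fat-2*) and 0 lower, where 5.72% of all genes were higher and 6.24% lower. The medians of the 10 were 0.10 and 0.32, against 0 over all genes in both. The more abundant genes had medians of 0.01 and 0.09 in these comparisons. At the looser FDR of 0.05 there was still none of the 10 lower in OR3350 in these comparisons. Across the 4 deposited comparisons 8 of the 10 genes were called at least once. The share of all genes called at least once was not worked out, so no excess can be read from that count. *fat-5* was called in all 4, in both directions, and none of the 10 was called in all 4 in the same direction. For *fat-6*, *elo-2*, *fat-2*, *elo-1*, *fat-4*, *fat-1* and *elo-5* no genotypes next to each other in order of level were called different, so their order is resolved at most in part.

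*egl-9 hif-1* against wild type, which carry no active HIF-1, had 0 of the 10 higher and 2 lower (*elo-2* and *fat-3*), where 4.81% of all genes were called higher and 2.47% lower. The median of the 10 was -0.19. The more abundant genes had a median of -0.12 in this comparison. Relative to that median, *elo-2* was at -0.69 (FDR 0.025) and *fat-3* at -0.44 (FDR 0.034), and neither was called. OR3350 against *egl-9*, which both have active HIF-1, had 2 higher (*fat-5* and *fat-7*) and 0 lower, where 1.44% of all genes were higher and 2.09% lower. The median of the 10 was 0.13, and that of the more abundant genes 0.05. The other 8 genes ranged from -0.19 to 0.47 and were not called.

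**Figure D3:**
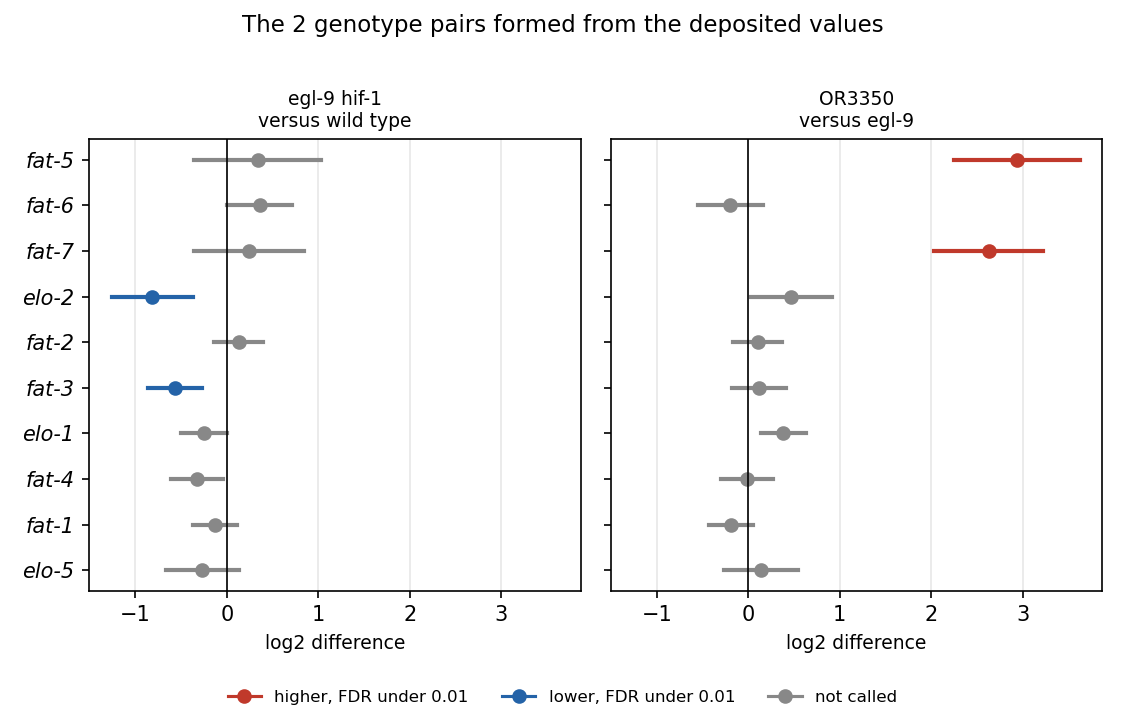
Log2 differences (horizontal axis) of the 10 genes in the pairs of genotypes formed from the deposited values, with bars for approximate 95% intervals. In OR3350 against *egl-9* only *fat-5* at 2.94 and *fat-7* at 2.63 were called, and in *egl-9 hif-1* against wild type only *elo-2* at -0.81 and *fat-3* at -0.56.

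Of 4 genes whose products supply electrons to desaturases, 3 rose in *egl-9* against wild type and against *egl-9 hif-1*. In OR3350, 2 rose against wild type and 1 against *egl-9 hif-1*. Of all genes, 9.81%, 5.57%, 5.07% and 5.72% were called higher in these comparisons, in that order. The cytochrome b5 gene *cytb-5.1* was 1.15 ± 0.15 higher in *egl-9* than in wild type (FDR 3.9e-12) and 0.80 ± 0.15 higher in OR3350 than in wild type (FDR 4.9e-06). It was also higher in *egl-9 hif-1* than in wild type (0.58 ± 0.15, FDR 0.0028). *hpo-19*, a predicted cytochrome b5 reductase gene, rose in all 4 deposited comparisons, by 0.42 to 0.62. *emb-8*, the cytochrome P450 reductase gene, rose in *egl-9*, by 0.71 ± 0.14 over wild type (FDR 1.2e-05) and 0.52 ± 0.14 over *egl-9 hif-1* (FDR 0.0043). In OR3350 it was not called over wild type (0.30, FDR 0.16) or *egl-9 hif-1* (0.10, FDR 0.72). The medians of the 4 genes were 0.57 and 0.53 in the *egl-9* comparisons, and 0.39 and 0.16 in the OR3350 comparisons.

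Of 9 genes of fatty acid synthesis and the remaining elongation steps, 2 rose in each of the 4 deposited comparisons. Both encode ATP citrate lyase, which supplies acetyl-CoA to the pathway. *acly-1* was higher by 2.04 ± 0.18 in *egl-9* and 1.82 ± 0.18 in OR3350 than in wild type (FDR 1.9e-26 and 6.4e-21). *acly-2* was higher by 0.81 ± 0.16 and 0.79 ± 0.16 in the same comparisons. *let-767*, the ketoacyl-CoA reductase gene of the elongation cycle, fell in *egl-9* against wild type (-0.52, FDR 2.4e-04) and was higher in OR3350 than in *egl-9* (0.53, FDR 6.9e-04). *pod-2*, the acetyl-CoA carboxylase gene, was lower in *egl-9 hif-1* than in wild type (-0.94, FDR 0.0026). *let-767* and *pod-2* were singled out after their values were seen. The medians of the 9 genes were 0.06 in *egl-9* and 0.09 in OR3350 against wild type.

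Of 6 other elongases, *elo-7* fell in all 4 deposited comparisons. It was lower than in wild type by a log2 difference of -0.90 ± 0.16 in *egl-9* and -1.09 ± 0.16 in OR3350. It lies 1610 bp beyond *elo-1* on the same strand. *elo-8* also fell in both OR3350 comparisons and *elo-4* in OR3350 against *egl-9 hif-1*, with values from -0.84 to -0.63 (named after their values were seen). None of the 6 was called higher, with medians of -0.19 in *egl-9* and -0.18 in OR3350 against wild type, and *elo-6*, the partner of ELO-5 in branched-chain synthesis, was called in no comparison (named after its values were seen).

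Of 11 regulators measured, *sbp-1*, the SREBP transcription factor gene that promotes delta-9 desaturase expression, had the largest fall in *egl-9* against wild type. It was lower than in wild type in *egl-9* (-1.10 ± 0.14, FDR 1.0e-12), OR3350 (-0.58 ± 0.14, FDR 7.0e-04) and *egl-9 hif-1* (-0.90 ± 0.14, FDR 4.3e-08). It was not called in *egl-9* against *egl-9 hif-1* (-0.20 ± 0.14, FDR 0.39), and OR3350 exceeded *egl-9* by 0.52 ± 0.14 (FDR 0.0079). *mdt-15*, the Mediator subunit gene, fell in *egl-9* against wild type (-0.42 ± 0.12, FDR 0.0022, named after its values were seen). The part of *sbp-1* in the differences of the desaturases was not tested. *acs-13*, a long-chain acyl-CoA synthetase gene, rose in all 4 deposited comparisons, by 0.84 to 0.91. The nuclear receptor genes of the list (*nhr-49*, *nhr-80*, *nhr-13*, *nhr-66* and *nhr-64*) were called in no comparison (named after their values were seen). In all, 1 of the 11 rose and 2 fell in *egl-9* against wild type (median -0.14), and 1 rose and 1 fell in OR3350 against wild type (median -0.06).

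Of 8 genes listed under use of polyunsaturated fatty acids, the predicted acyltransferase gene *acl-12* rose in all 4 deposited comparisons. Whether its product uses these fatty acids was not measured here. Against wild type the difference was 2.13 ± 0.21 for *egl-9* (FDR 5.4e-23) and 1.72 ± 0.20 for OR3350 (FDR 5.6e-15). The cytochrome P450 genes *cyp-29A3* and *cyp-13A12* were lower than in *egl-9 hif-1* in both *egl-9* (-1.18 and -1.53) and OR3350 (-1.74 and -1.32), and higher in *egl-9 hif-1* than in wild type (named after their values were seen). No others of the 8 were called, and the medians over all 8 were 0.01 in *egl-9* and -0.08 in OR3350 against wild type.

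**Figure D4:**
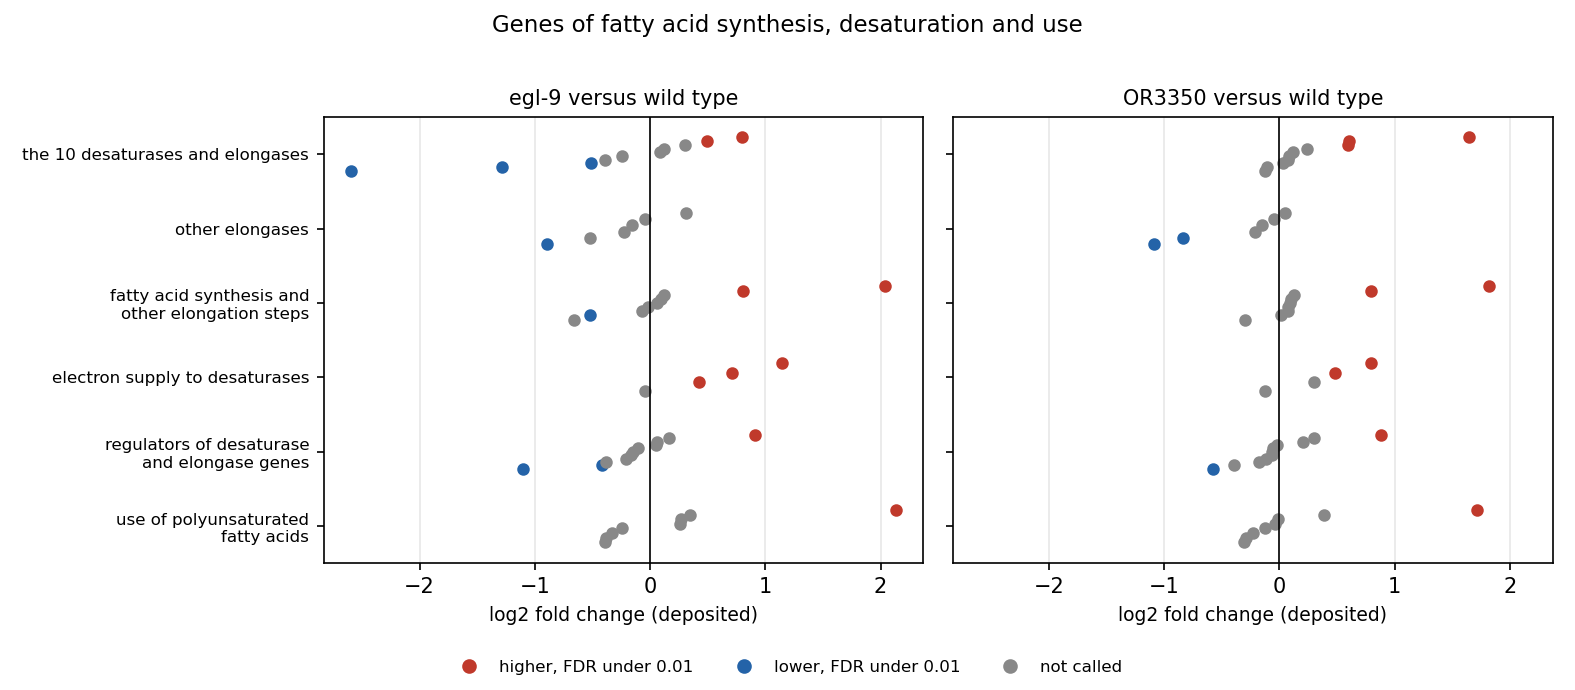
Log2 fold changes (horizontal axis) in *egl-9* (left) and OR3350 (right) against wild type for the 10 genes and the other lists of fatty acid genes, 1 point a gene, with colours for FDR calls. *fat-7* (-2.59) and *fat-5* (-1.29) lie lowest in *egl-9*, and *elo-7* (-1.09) lies lowest in OR3350, while *acly-1* and *acl-12* lie highest in *egl-9* at 2.04 and 2.13.

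*fat-7* had the largest difference of the 10 in *egl-9* against wild type, and the genes with the most similar pattern were found by the Euclidean distance over 3 log2 differences (*egl-9*, OR3350 and *egl-9 hif-1*, each against wild type) among 5252 genes whose mean log2 CPM was 5 or higher. The nearest was *lips-15*, a lipase-family gene, at a distance of 0.59, followed by *pgp-5* (0.85), *ugt-29* (0.92), *pgp-6* (0.99) and *aagr-1* (1.13). *lips-15* was at -2.70 in *egl-9*, -0.53 in OR3350 and 0.36 in *egl-9 hif-1*. *pgp-5*, an ABC transporter gene of the P-glycoprotein family, was at -2.16 in *egl-9*, 0.25 in OR3350 and -0.46 in *egl-9 hif-1*. All 5 were chosen for this likeness, so their values are a description.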

How the data were processed

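Poly(A) RNA of whole L4 animals was sequenced as single-end reads of 50 nucleotides. The authors used STAR 2.5.1a to map reads to WS245 and to count them by gene, and the authors fitted a model in edgeR, whose version is not given in the sources used here. Both the log2 fold changes and the mean log2 CPM in the deposited tables are the authors' estimates for 4 pairwise comparisons. A score column, deposited by the authors, holds likelihood ratios on 1 degree of freedom. The p-values in the deposited tables and their Benjamini-Hochberg FDR over 27375 genes are also the authors'. The authors' comparison values are used because the tables hold no counts per library. Refits, values per library and a check of the sequencing provider, which is not given per library, could therefore not be made. For each gene the 4 values sum around the loop of genotypes to at most 4.9e-08, and recomputing the FDR from the p-values changed 0 calls.

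The SE is approximate, from the log2 fold change and its likelihood ratio. The 2 further differences were formed by subtraction and tested with an approximate two-sided z test, with the mean squared SE of the 4 comparisons, in Python 3.11.15 (numpy 2.4.6, pandas 2.3.3, scipy 1.17.1; figures with matplotlib 3.10.9). The z test and the likelihood ratio test were also run on simulated tables of 27375 genes, with equal library sizes and a known spread per gene. For each pair, 50 genes were given a log2 size of 1. Both tests called 84% of them for *egl-9 hif-1* minus wild type and 90% for OR3350 against *egl-9*. The authors' fit estimated the spread from real libraries, so the simulation does not show how the z test performs on the deposited values. Libraries are separate biological replicates, and the authors' p-values test differences against the spread between them as modelled in their fit. The z test uses that spread only through the approximate SE. Gene positions come from the Ensembl annotation of WBcel235, the assembly of release WS245. Symbols were found for 25024 of 27375 identifiers, and *lpd-1* of the regulator list was not matched.

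The 10 genes and all lists were chosen with earlier results of these data known. The text names the 10 genes, list members called in the same direction in all 4 deposited comparisons, up to 2 list members with the largest called difference in *egl-9* against wild type, the 5 genes nearest to the member with the largest difference, and *hif-1* and *egl-9*. Cell markers and overlapping genes apart, other genes named are marked in the text. Germ line, sperm and body wall muscle markers were also listed. In *egl-9* against wild type 0 rose and 1 of 6, 2 of 6 and 1 of 4 of them fell. In OR3350 against *egl-9* none was called. Alternatives were an FDR under 0.05, an adjustment restricted to mean log2 CPM values of 0 or higher, a minimum of 1.5-fold, and the largest or smallest SE of the 4. Recentring on the median of more abundant genes (mean log2 CPM 5 or higher) was added after the data were seen.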

Additional observations from a re-analysis of the deposited data

Results flagged for a closer look

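*fat-5* and *fat-7* differed between the strains in which HIF-1 is active. OR3350 minus *egl-9* was 2.94 ± 0.35 on the log2 scale for *fat-5* (FDR 2.8e-14) and 2.63 ± 0.31 for *fat-7* (FDR 4.1e-15), by the approximate z test of the difference itself. The strains share *egl-9(sa307)* and differ in the source of HIF-1, the transgene in OR3350 and the endogenous gene in *egl-9*, in *unc-119(ed3)* and its rescue, which OR3350 carries, and in *hif-1* RNA (-0.43, FDR 0.0039). *sbp-1* (0.52, FDR 0.0079) was also higher in OR3350 than in *egl-9*, and the yolk genes had a median of 1.38 with none of 6 called. The part of these differences in the values of *fat-5* and *fat-7* was not tested, and strain background cannot be told apart from the transgene. The sequencing provider of each library is not given, so its part in these values could not be tested either.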

How the results depend on the processing

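Of 280 values of single genes recomputed under the alternatives, 266 kept their direction and their side of the threshold, 9 lost a call, 4 gained one and 1 changed sign. Only recentring altered the log2 values, so no other alternative could change a sign. An FDR under 0.05 could only add calls, and a minimum of 1.5-fold could only remove them. Much of the agreement was therefore fixed in advance. The differences of *fat-5* and *fat-7* kept all their calls under every alternative run. A minimum of 1.5-fold left 3 of the 10 genes called in *egl-9* against wild type (5 without it; *fat-2* and *elo-1* were lost) and 1 in *egl-9 hif-1* against wild type (2 without it; *fat-3* was lost). Recentring, which subtracted a median of -0.125 from the values of *egl-9 hif-1* against wild type, left 0 of 2 genes called there. Recentring also ended the calls of *fat-1* in *egl-9* against *egl-9 hif-1* (FDR 0.012) and of *fat-2* in OR3350 against *egl-9 hif-1* (FDR 0.038). It turned the sign of *elo-5* in *egl-9* against *egl-9 hif-1*, which was not called, to -0.0206. An FDR under 0.05 added *fat-1* in *egl-9* against wild type, *fat-4* against *egl-9 hif-1* in both *egl-9* and OR3350, and *elo-1* in OR3350 against *egl-9*. No paired analysis was possible because the deposited tables hold no values per library, and for the same reason no library could be left out in turn and no other count test was run.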
